A study of Mus musculus with 30 samples.

Results

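The 7 noncoding and predicted genes described here are *Gm11512*, *Gm13340*, *Gm43531*, *Gm11410*, *2310065F04Rik*, *B230312C02Rik* and *4632427E13Rik*. They were picked by symbol from the 36103 genes of the count table because their levels differed clearly between genotypes in the diaphragm, the gastrocnemius or the liver, so their genotype differences in these 3 tissues are given as a description and without a test. The libraries came from *Mtm1*-/y males, a model of X-linked myotubular myopathy that lacks the phosphoinositide phosphatase myotubularin, and from their wild-type (WT) littermates. All mice were 5 weeks old and of the 129Pas strain, and no agent was given. Polyadenylated RNA of whole snap-frozen organs was sequenced from the gastrocnemius (4 WT and 4 *Mtm1*-/y), diaphragm (4 and 3), heart (4 and 4) and liver (3 and 4). The *Mtm1*-/y mice lack *Mtm1* in every tissue, so an effect that starts in another organ cannot be told apart from one that starts in the tissue sampled.

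The genes are of 2 kinds. *Gm11512*, *Gm13340*, *Gm43531* and *Gm11410* are pseudogenes that arose when mitochondrial DNA was copied into the nuclear genome. The mitochondrial genome encodes subunits of the respiratory chain, among them cytochrome c oxidase subunit I (*mt-Co1*) and cytochrome b (*mt-Cytb*). Transcripts of *mt-Co1* and *mt-Cytb* are abundant. They resemble some of the nuclear copies so closely that a short read cannot always be assigned to its source. *2310065F04Rik*, *B230312C02Rik* and *4632427E13Rik* are long noncoding RNAs, transcripts without a recognised open reading frame that are often restricted to certain tissues. *2310065F04Rik*, also called linc-Myh, lies in the cluster of skeletal myosin heavy chain genes and is known from fast muscle fibres.

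The 4 nuclear copies differed widely in how much of the mitochondrial sequence they kept. In the mm10 assembly with the GENCODE M21 annotation, *Gm11512* is a 1-exon processed pseudogene at chr11:90538484-90539146 on the minus strand, inside an intron of *Stxbp4*, and it was 90.7% identical to *mt-Co1* over 654 bases. *Gm13340*, an unprocessed pseudogene at chr2:22588103-22589647 (minus strand), was 97.6% identical to *mt-Co1* over 1545 bases. *Gm43531*, a processed pseudogene at chr5:84618706-84619819 (plus strand), was 75.6% identical to it over 1141 bases, and no other gene of the table lies within 100 kb of it. *Gm11410*, a processed pseudogene at chr4:80003989-80005131 (plus strand), was 92.9% identical to *mt-Cytb* over 1142 bases. A 60-base stretch shows these degrees of divergence. The lines below cover chrM:6369-6428 (*mt-Co1*), chr2:22588547-22588606, chr11:90538925-90538984 and chr5:84619745-84619804, then chrM:14686-14745 (*mt-Cytb*) and chr4:80004530-80004589, each on the strand of its gene, and capitals mark the bases that differ from the mitochondrial gene.
mt-Co1: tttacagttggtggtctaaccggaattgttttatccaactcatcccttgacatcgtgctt
Gm13340: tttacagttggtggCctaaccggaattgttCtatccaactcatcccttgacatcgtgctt
Gm11512: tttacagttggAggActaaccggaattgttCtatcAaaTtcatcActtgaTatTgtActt
Gm43531: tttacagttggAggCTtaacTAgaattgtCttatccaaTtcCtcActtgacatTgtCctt
mt-Cytb: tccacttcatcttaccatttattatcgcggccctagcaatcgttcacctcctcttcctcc
Gm11410: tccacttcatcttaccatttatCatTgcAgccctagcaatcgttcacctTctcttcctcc

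*Gm13340* has 2 differences in this stretch, *Gm11512* has 9 and *Gm43531* has 11, and *Gm11410* has 4 against *mt-Cytb*. Over whole genes, and for windows of the 50-base read length, 92.5% of the 1496 windows of *Gm13340* differed from *mt-Co1* at 2 positions or fewer, and 411 were identical to it. The same share was 22.8% in *Gm11512*, 22.9% in *Gm11410* and 0.0939% in *Gm43531*, where 1 of 1065 windows was so close. The counts were made from uniquely aligned reads, so a read that matches 2 places equally well was not counted, while a mitochondrial read with a sequencing error or a base change could still fall on a close copy.

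The 3 long noncoding RNAs have other surroundings. *2310065F04Rik* (chr11:67112461-67120080, minus strand) is a lincRNA with annotated transcripts of 5 and 4 exons, and no other transcript of the annotation matched it. *B230312C02Rik* (chr2:180370491-180385885, minus strand) is a 7-exon lincRNA of 1703 bases that matched transcripts of 1484 genes, the best match lying at its bases 1543 to 1701. *4632427E13Rik* (chr7:92734166-92741468, minus strand) is annotated as a lncRNA of a bidirectional promoter, since the protein-coding gene *Rab30*, a small GTPase of the Golgi, starts 135 bases away on the opposite strand, and stretches of it matched transcripts of 3464 genes. Reads from such repeats are uncertain in origin. RefSeq promoter sequences were found for 2 of the 3, and both are shown because the levels of these genes and of their neighbours are compared below. The first covers chr11:67120031-67120330 and the second chr7:92741410-92741602 of GRCm38.p6, both read on the minus strand. Capitals mark the first 50 transcribed bases of *2310065F04Rik*, and in the second the 134 bases between its start and that of *Rab30*.
2310065F04Rik: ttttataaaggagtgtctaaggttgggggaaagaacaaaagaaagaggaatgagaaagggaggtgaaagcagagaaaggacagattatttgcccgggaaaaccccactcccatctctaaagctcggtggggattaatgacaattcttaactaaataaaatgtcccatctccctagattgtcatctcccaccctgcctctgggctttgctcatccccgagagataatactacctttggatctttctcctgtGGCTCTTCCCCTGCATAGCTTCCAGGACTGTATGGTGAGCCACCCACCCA
4632427E13Rik: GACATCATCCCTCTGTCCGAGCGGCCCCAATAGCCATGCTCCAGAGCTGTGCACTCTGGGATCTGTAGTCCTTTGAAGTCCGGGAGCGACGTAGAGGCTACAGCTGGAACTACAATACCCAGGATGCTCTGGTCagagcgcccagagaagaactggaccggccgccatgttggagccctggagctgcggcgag

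The *2310065F04Rik* window held none of the letters searched on both strands, which were CANNTG (the E-box, present in 72.3% of 32851 promoters of 300 bases), TCAGGTT (4.07%) and ACTACAA (3.24%), and it has 3 CG dinucleotides and a GC content of 46.7%. The *4632427E13Rik* window, of 193 bases, is GC-rich at 60.1% with 10 CG dinucleotides. It held ACTACAA in 1 place, CANNTG in 1 place and TCAGGTT in none. These are matches of letters and not observed binding sites.

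The libraries held 24873817 to 44289343 counts. *Mtm1* itself was lower in *Mtm1*-/y than in WT without overlap in every tissue, with log2 fold changes of -2.07 (SE 0.1) for the gastrocnemius, -2.26 (SE 0.171) for diaphragm, -2.59 (SE 0.109) for heart and -1.60 (SE 0.226) for liver. In the liver, unlike the other organs, edgeR did not call it (edgeR adjusted p 0.37, DESeq2 adjusted p 1.5e-06). A count of 0 edgeR calls in the liver therefore does not show that nothing changed there. Marker genes matched the labelled organs, although 10 hepatocyte markers summed to 488 to 37800 CPM in WT diaphragm and to 802 to 47200 CPM in *Mtm1*-/y diaphragm, against 189000 to 238000 CPM in liver. Levels are given as CPM, counts scaled to a library of 1000000, after TMM scaling over all 30 libraries, and a fold change is the edgeR log2 fold change of *Mtm1*-/y over WT within a tissue. Nothing in the labels says which libraries share a litter or a preparation, so each p-value measures the spread between these libraries. The mitochondrial share of counts ran from 3.49% in liver to 17.5% in heart. The first 16 and the last 14 columns of the table stood apart for the mitochondrial copies relative to the mitochondrial genes, as given with their values, and WT and *Mtm1*-/y diaphragm lie on different sides of that division.

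**Figure D1:**
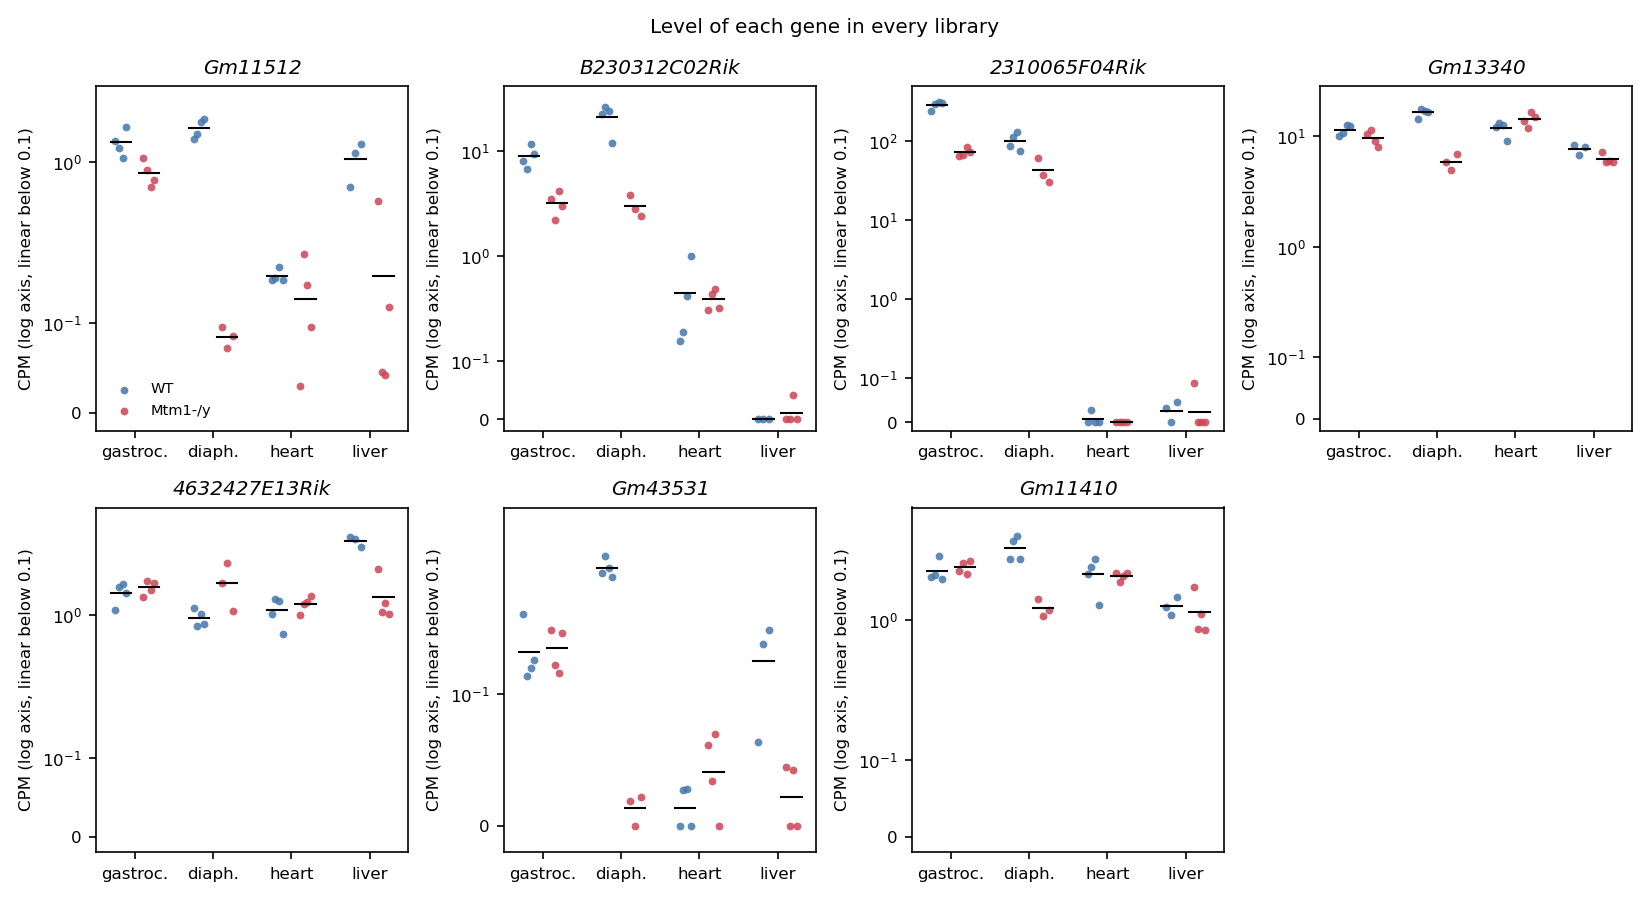
Level of each of the 7 genes in every library. The vertical axis is CPM, logarithmic and linear below 0.1, the horizontal axis gives the tissue, each point is 1 library (blue WT, red *Mtm1*-/y) and the line is the group mean. *Gm11512* lies between 0.0721 and 0.0955 CPM in the *Mtm1*-/y diaphragm, and *2310065F04Rik* is high in the gastrocnemius and diaphragm and near 0 in the heart and liver.

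The long noncoding RNA *2310065F04Rik* was by far the most abundant of the 7 and was lower in both skeletal muscles of *Mtm1*-/y mice. In the gastrocnemius its level was 237, 285, 305 and 299 CPM in WT and 63.9, 66.2, 81.9 and 72.5 CPM in *Mtm1*-/y. In the diaphragm it was 84.2, 110, 128 and 74.8 CPM in WT and 60.3, 37.1 and 29.9 CPM in *Mtm1*-/y. The genotypes did not overlap in either muscle, and the difference was wider in the gastrocnemius (log2 fold change -2.01, SE 0.111) than in the diaphragm (-1.22, SE 0.288), without a test of that gap. In the heart and liver it was all but undetected, with 1 count over 8 heart libraries and 4 counts over 7 liver libraries. In whole muscle, fewer cells of a type and less RNA per cell cannot be told apart. Marker lists moved with genotype in the same gastrocnemius libraries. The 7 skeletal muscle markers summed to 199000 to 238000 CPM in WT and 128000 to 140000 CPM in *Mtm1*-/y, 6 macrophage markers to 27.2 to 49.7 and 78.4 to 101 CPM, and 6 B cell markers to 60.9 to 83 and 6.16 to 9.65 CPM. The 4 mesothelium markers summed to 0.675 to 1.44 and 4.23 to 12.7 CPM and 2 brown adipocyte markers to 1.54 to 2.75 and 3.84 to 7.57 CPM, the other 5 lists overlapped between genotypes, and the part of these markers in the result was not tested.

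*B230312C02Rik* was lower in both muscles as well, more so in the diaphragm. Its level in the gastrocnemius was 8.19, 6.79, 11.8 and 9.42 CPM in WT and 3.49, 2.24, 4.18 and 3.01 CPM in *Mtm1*-/y libraries (log2 fold change -1.50, SE 0.218). In the diaphragm it was 22.8, 26.3, 24.5 and 12.1 CPM in WT and 3.8, 2.85 and 2.43 CPM in *Mtm1*-/y (-2.81, SE 0.312). The genotypes were apart in both muscles, and WT diaphragm replicate 4 lay closest to the *Mtm1*-/y values. Each of the 10 marker lists for other cell types and muscle overlapped between genotypes in the diaphragm in its summed level. In the heart the level was 0.156, 0.19, 0.42 and 1.01 CPM in WT and 0.305, 0.436, 0.484 and 0.321 CPM in *Mtm1*-/y, with full overlap, and the liver libraries held 1 count in all.

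*4632427E13Rik* was lower in *Mtm1*-/y liver and had a higher mean in *Mtm1*-/y diaphragm. In the liver it was 3.59, 3.44 and 3.04 CPM in WT and 2.12, 1.05, 1.23 and 1.02 CPM in *Mtm1*-/y libraries (log2 fold change -1.35, SE 0.306). In the diaphragm it was 1.12, 0.837, 1.03 and 0.876 CPM in WT and 1.7, 2.34 and 1.07 CPM in *Mtm1*-/y (0.82, SE 0.294). The liver groups did not overlap, with *Mtm1*-/y replicate 1 nearest to WT, whereas in the diaphragm the lowest *Mtm1*-/y library lay inside the WT range. In the gastrocnemius the groups overlapped, at 1.1 to 1.67 CPM in WT and 1.35 to 1.75 CPM in *Mtm1*-/y. The hepatocyte markers summed to 189000 to 207000 CPM in WT liver and to 208000 to 238000 CPM in *Mtm1*-/y liver, and their part in the result was not tested.

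*Gm11512*, the 90.7% copy of *mt-Co1*, was lower in *Mtm1*-/y diaphragm and liver and less so in the gastrocnemius. In the diaphragm the WT libraries had 52, 71, 63 and 72 reads (1.39, 1.49, 1.76 and 1.85 CPM) and the *Mtm1*-/y libraries had 5, 2 and 4 (0.0955, 0.0721 and 0.0858 CPM), a log2 fold change of -4.18 (SE 0.257). In the liver there were 22, 28 and 28 reads in WT and 13, 1, 1 and 4 in *Mtm1*-/y (0.699, 1.13 and 1.29 against 0.575, 0.0456, 0.0425 and 0.127 CPM). The liver groups did not overlap, but *Mtm1*-/y replicate 1 lay just under the lowest WT library, and the log2 fold change of -2.42 (SE 0.739) became -3.74 without it. In the gastrocnemius the difference was far smaller, at 1.35, 1.23, 1.06 and 1.65 CPM in WT and 1.06, 0.891, 0.702 and 0.774 CPM in *Mtm1*-/y (-0.64, SE 0.222), with the highest *Mtm1*-/y value just under the lowest WT value. In the heart both genotypes were low, at 0.186 to 0.224 CPM in WT and 0.0305 to 0.268 CPM in *Mtm1*-/y.

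*Gm43531*, the most diverged copy, had few reads everywhere and reached the count filter only in the diaphragm. There it had 12, 18, 12 and 12 reads in WT and 1, 0 and 1 in *Mtm1*-/y, so WT exceeded *Mtm1*-/y 21.4-fold on the CPM scale (95% counting interval 5.64 to 181). In the liver it had 2, 4 and 4 reads in WT and 1, 0, 1 and 0 in *Mtm1*-/y (6.39-fold, 1.36 to 60). In the gastrocnemius the reads were 7, 3, 4 and 4 in WT and 7, 4, 4 and 6 in *Mtm1*-/y, with full overlap, and in the heart 0 to 2 in any library. These intervals cover counting error only and not the spread between mice. The diaphragm and liver differences entered the choice of the genes, so their intervals are not a test.

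*Gm13340* and *Gm11410*, the closer copies of *mt-Co1* and *mt-Cytb*, were lower by similar amounts in the *Mtm1*-/y diaphragm and differed little elsewhere. *Gm13340* was at 14.1, 17.7, 16.9 and 16.6 CPM in WT diaphragm and at 5.88, 4.9 and 6.85 CPM in *Mtm1*-/y libraries (log2 fold change -1.46, SE 0.149). *Gm11410* was at 2.77, 3.7, 4.03 and 2.76 CPM in WT diaphragm and at 1.43, 1.08 and 1.18 CPM in *Mtm1*-/y (-1.41, SE 0.214). Neither gene overlapped between genotypes in the diaphragm, and both overlapped in the gastrocnemius (-0.26, SE 0.133 and 0.07, SE 0.18), and with library totals in place of TMM and a pseudocount of 0.05 the first was 0.0745. In the liver *Gm13340* was at 8.33, 6.68 and 7.96 CPM in WT and 7.21, 5.84, 5.91 and 5.79 CPM in *Mtm1*-/y (-0.35, SE 0.166), and *Gm11410* at 1.24, 1.09 and 1.47 against 1.73, 0.867, 1.1 and 0.858 CPM (-0.20, SE 0.34). Both genes overlapped in the liver.

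Counted over the 7 genes, *Mtm1*-/y was lower without overlap for 3 (gastrocnemius), 6 (diaphragm) and 3 (liver). Among all genes tested the same was true of 15% of 15456 in the gastrocnemius, 5.26% of 16796 in the diaphragm and 2.61% of 14305 in the liver (3.45% higher without overlap there), and since the 7 were chosen for such differences nothing is read from their count. With an edgeR adjusted p below 0.05 and a log2 fold change above 1 in size, 6.63% of all genes were called in the gastrocnemius (1.79% lower), 0.0119% in the diaphragm and 0 in the liver. DESeq2 called 6.65%, 1.63% and 0.0649% there, and 606 of the 14305 liver genes had an unadjusted edgeR p under 0.05. The count filter kept 6 of the 7 genes for the gastrocnemius, 7 for the diaphragm and 4 for each of heart and liver.

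The heart was not used to choose the genes, so it could be tested. *Gm13340* was at 12.0, 13.2, 12.7 and 8.99 CPM in WT and 13.6, 11.7, 16.4 and 14.7 CPM in *Mtm1*-/y libraries (log2 fold change 0.26, SE 0.141, edgeR adjusted p 0.55). The values were 0.15 (SE 0.223, adjusted p 0.78) for *4632427E13Rik*, -0.05 (SE 0.227, adjusted p 0.94) for *Gm11410* and -0.23 (SE 0.561, adjusted p 0.87) for *B230312C02Rik*. In edgeR 0 of the 4 genes tested were called, against 0.00656% of the 15238 heart genes. Of the 4, 0 had an unadjusted edgeR p under 0.05, against 1353 of the 15238 heart genes. DESeq2 called 0 of the 4, against 0.362% of 18771 heart genes. At such shares little can be read from 0 of 4 genes. All 7 genes overlapped between genotypes in the heart. Among the 15238 heart genes only 1.98% were higher and 2% lower in *Mtm1*-/y without overlap, so little is read from this. *2310065F04Rik*, with 1 read in WT heart and 0 in *Mtm1*-/y heart, could not have stood apart. *Gm11512*, too low for the edgeR filter, had a DESeq2 adjusted p of 0.84, and *Gm43531* had 2 reads in WT and 5 in *Mtm1*-/y (2.9-fold, 95% counting interval 0.475 to 30.5).

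**Figure D2:**
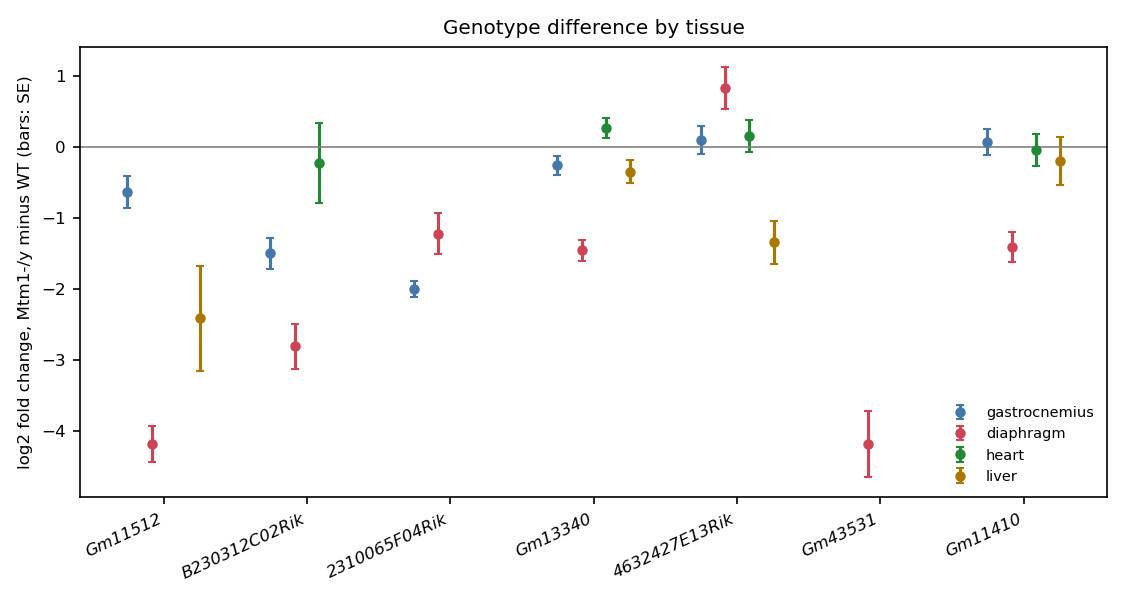
Genotype difference of each gene by tissue. The vertical axis is the edgeR log2 fold change of *Mtm1*-/y over WT, bars are 1 SE, colours are tissues, and a tissue without a point is one where the gene did not pass the count filter. The *Gm43531* point rests on 2 reads in *Mtm1*-/y. The 4 heart points lie between -0.23 and 0.26, and 6 of the 7 diaphragm points lie below -1.

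The WT libraries alone showed how the genes are distributed over the organs. Among 42 combinations of gene and tissue pair, 24 differed by edgeR (adjusted p below 0.05, log2 difference above 1 in size). The same WT values of the gastrocnemius, diaphragm and liver entered the choice of the genes through their genotype differences. Every pair includes at least 1 of these organs. The count of 24 and the adjusted p values of the WT organs, here and below, are therefore a description and not an independent test. Of all 17725 genes, 26.8% differed between gastrocnemius and diaphragm, 32% between gastrocnemius and heart, 56.7% between gastrocnemius and liver, 27% between diaphragm and heart, 50% between diaphragm and liver and 52.8% between heart and liver. Per kb of exon, *2310065F04Rik* was highest at 96.5 CPM (SD 10.7, n = 4) in the gastrocnemius and 34 CPM (SD 8.34, n = 4) in the diaphragm, a log2 difference of 1.56 (SE 0.201, adjusted p 3e-05). Its level was 39900-fold higher in the gastrocnemius than in the heart (95% counting interval 7160 to 1580000) and 10900-fold higher than in the liver (3020 to 90200), where 1 and 2 reads were counted. *B230312C02Rik* had the reverse order in muscle, at 12.6 CPM per kb in the diaphragm and 5.31 in the gastrocnemius (gastrocnemius minus diaphragm -1.19, SE 0.374, adjusted p 0.017). It was lower in the heart, at 0.261 CPM per kb (diaphragm minus heart 5.54, SE 0.48, adjusted p 2e-06), and had no read in WT liver, so that it was at least 561-fold higher in the diaphragm, at least 237-fold higher in the gastrocnemius and at least 11.9-fold higher in the heart, against a floor of 3 counts over the group.

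*4632427E13Rik* was the gene that was highest in WT liver, at 0.46 CPM per kb against 0.132 to 0.199 in the other organs. The liver exceeded the gastrocnemius (log2 difference of gastrocnemius minus liver -1.17, SE 0.211, adjusted p 0.00015), the diaphragm (-1.80, SE 0.213, adjusted p 3.8e-06) and the heart (-1.63, SE 0.212, adjusted p 7.2e-06), and the other 3 organs did not differ from each other past both thresholds. *Gm13340* stayed within a narrow range, from 10.6 CPM per kb in the diaphragm through 7.58 in the heart and 7.38 in the gastrocnemius to 4.96 in the liver, and only its first and last organ differed past both thresholds (1.09, SE 0.142, adjusted p 1e-05). *Gm11410* had the same first and last organ, at 2.9 and 1.11 CPM per kb (1.38, SE 0.261, adjusted p 0.00029), with 1.98 and 1.88 in the gastrocnemius and heart.

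*Gm11512* did not follow that narrow pattern, and its WT heart libraries lie on the other side of the column division from the other WT organs. In WT it was at 2.45 CPM per kb in the diaphragm, 2 in the gastrocnemius and 1.57 in the liver, which did not differ past both thresholds, and at 0.297 in the heart. The heart was lower than the gastrocnemius (gastrocnemius minus heart 2.76, SE 0.248, adjusted p 3.7e-07), the diaphragm (3.01, SE 0.245, adjusted p 3e-07) and the liver (heart minus liver -2.36, SE 0.266, adjusted p 1.6e-06). *Gm43531*, with 2 reads in WT heart, was 10.8-fold higher in the gastrocnemius (95% counting interval 2.6 to 96.4), 24-fold in the diaphragm (6.34 to 203) and 9.13-fold in the liver (1.95 to 85.7).

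The reads of the 4 mitochondrial copies, taken relative to those of the mitochondrial gene, also divided the libraries by their position in the deposited table, and this division was seen only after the values had been examined. The first 16 columns hold WT liver, *Mtm1*-/y liver replicate 1, all gastrocnemius libraries and WT diaphragm, and the last 14 hold all *Mtm1*-/y diaphragm and heart libraries, WT heart, and *Mtm1*-/y liver replicates 2 to 4. Per 1000000 *mt-Co1* reads, *Gm11512* had 47.2 to 90.9 reads in the first 16 libraries and 0.707 to 7.81 in the last 14. *Gm43531* had 3.76 to 15.5 and 0 to 2.53, and *Gm13340* had 522 to 732 and 260 to 373. *Gm11410* had 105 to 217 and 59.6 to 91.7 per 1000000 *mt-Cytb* reads. None of the 4 genes overlapped between the first 16 and the last 14 libraries on this relative scale. The share of other genes that separate on it was not computed. All heart libraries lie among the last 14, and there *mt-Co1* averaged 35790 (WT) and 42610 CPM (*Mtm1*-/y), against 13430 to 24490 in the other groups. For *mt-Cytb* the means were 29300 and 31380 against 11590 to 18710 CPM. At the same CPM of a copy, a heart library therefore has a lower ratio. For *Gm43531* the nearest libraries, *Mtm1*-/y liver replicates 1 and 3, had 1 read each. They differed only by their *mt-Co1* reads, 265925 and 395493, so this separation is weak. In CPM *Gm13340* and *Gm11410* did overlap, with heart libraries at 8.99 to 16.4 and 1.28 to 2.74 CPM. In the gastrocnemius, where both genotypes lie among the first 16, *Gm11512* was at 47.2 to 83.3 in WT and 52.4 to 74.2 in *Mtm1*-/y per 1000000 *mt-Co1* reads, and in the heart, where both lie among the last 14, at 4.59 to 7.31 and 0.707 to 6.75.

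**Figure D3:**
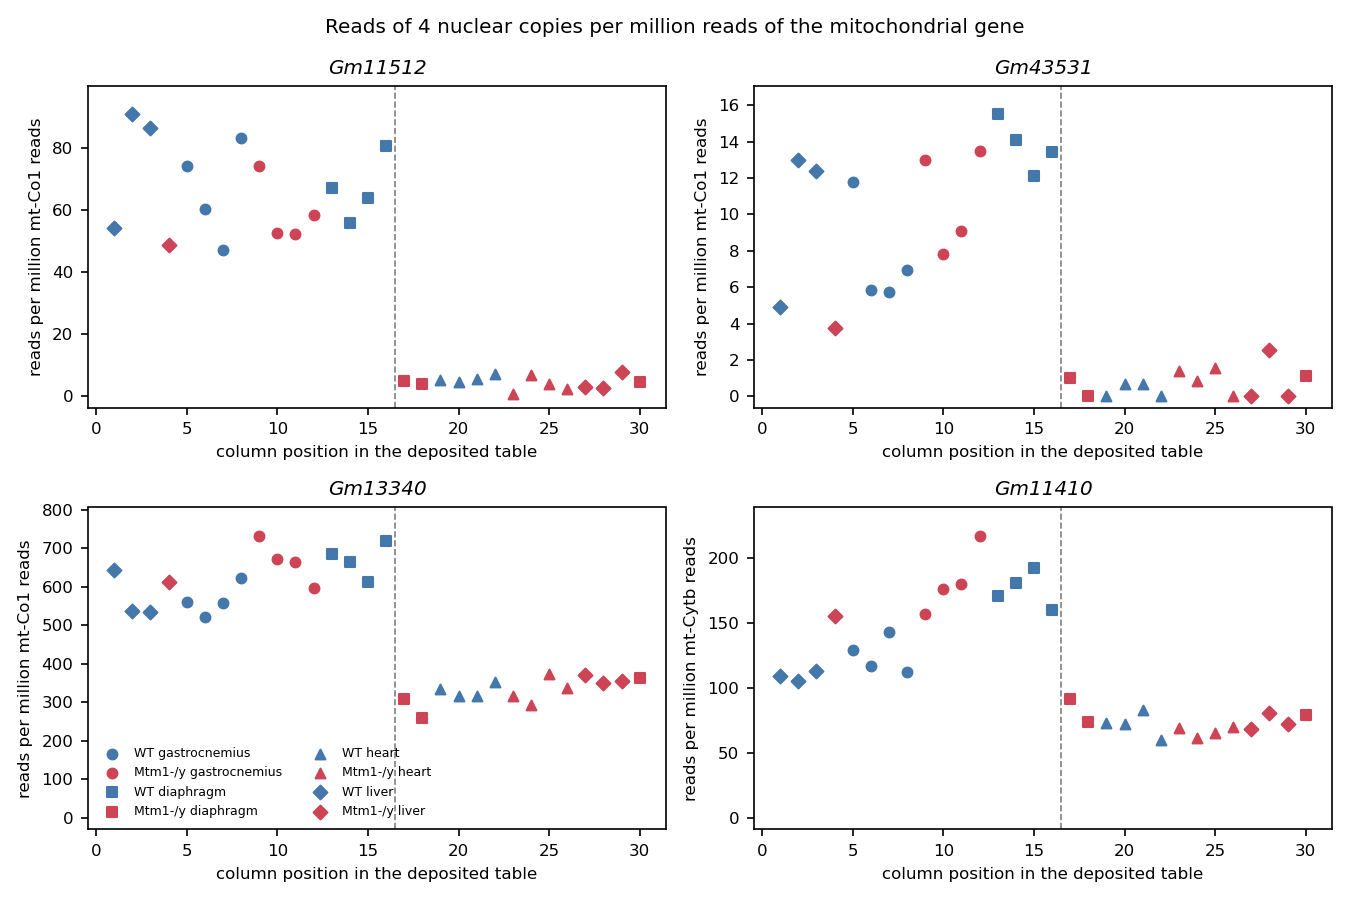
Reads of the 4 nuclear copies per 1000000 reads of the mitochondrial gene they resemble (vertical axis, linear), by the position of the library in the deposited table (horizontal axis). Colour gives genotype, shape gives tissue, and the dashed line separates the first 16 from the last 14 columns. *Gm11512* lies at 47.2 or more on the left and at 7.81 or less on the right, and 1 red diamond, *Mtm1*-/y liver replicate 1, lies on the left with the WT livers.

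The liver was the only organ with 1 genotype on both sides. *Mtm1*-/y liver replicate 1, among the first 16, had 48.9 *Gm11512*, 3.76 *Gm43531* and 613 *Gm13340* reads per 1000000 *mt-Co1* reads and 155 *Gm11410* reads per 1000000 *mt-Cytb* reads. The other *Mtm1*-/y livers had 2.53 to 7.81, 0 to 2.53, 351 to 370 and 68.2 to 80.7. With the side of the table as a term, the liver log2 fold change of *Gm11512* was -0.83 (SE 0.626) in place of -2.42. For *4632427E13Rik* it was -0.65 (SE 0.329) in place of -1.35. In the diaphragm WT and *Mtm1*-/y lie on different sides, so genotype and position cannot be told apart there, and the same holds for WT heart against the other WT organs. Whether the order of the columns follows sequencing runs or preparations is not given in the sources used here. Of 13803 genes tested in the diaphragm and liver, 23 (0.167%) were higher and 76 (0.551%) lower on the first side in both organs without overlap. *Gm11512* and *Gm13340* were among the 23, while *Gm11410* and *4632427E13Rik* were compared and were not. In the diaphragm this comparison of sides is also that of WT with *Mtm1*-/y. The genes were chosen for genotype differences in these organs, so nothing is read from their place among the 23.

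The mitochondrial genes themselves differed much less between genotypes in the diaphragm than their copies. In the diaphragm *mt-Co1* had a log2 fold change of -0.36 (edgeR adjusted p 0.75) and *mt-Cytb* of -0.30 (adjusted p 0.78), in the heart 0.24 (adjusted p 0.58) and 0.09 (adjusted p 0.81), and in the liver 0.13 (adjusted p 0.97) and 0.05 (adjusted p 0.98). In the gastrocnemius, where *Gm11512* was at -0.64, *Gm13340* at -0.26 and *Gm11410* at 0.07, both mitochondrial genes were lower in *Mtm1*-/y, with log2 fold changes of -0.50 (adjusted p 0.01) and -0.46 (adjusted p 0.015), as were all 7 mitochondrial mRNAs tested by the adjusted p alone, none past a log2 fold change of 1. Of the 12 mitochondrial mRNAs in the table, 5 had 28 reads or fewer over all 30 libraries. Among these, *mt-Co2*, *mt-Atp6* and *mt-Co3* had 28, 28 and 12 reads and nuclear copies of 100% identity, against 23513315 reads for *mt-Co1*, although *mt-Nd4*, which also has a copy of 100% identity, had 8202911.

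Nuclear copies of mitochondrial genes at large, with those among the 7 genes included, were compared between genotypes in the diaphragm. Of 45 in the table, 20 had at least 10 reads in a library, and WT diaphragm exceeded *Mtm1*-/y diaphragm more than 2-fold in 14 of them, while none showed the opposite past 2-fold. All 7 copies under 92% identity and 7 of the 13 others were among the 14, a limit set after the values were seen. The 14 include *Gm11512*, *Gm43531*, *Gm13340* and *Gm11410*, which were chosen for such differences, and *Gm11512* and *Gm43531* are among those under 92%. *Gm28926*, a copy of *mt-Atp6* at 80.6% identity, had 62 reads in WT and 0 in *Mtm1*-/y, at least 16.4-fold. *AC116658.2* and *AC124578.3* had ratios of 19.8 and 10.4, and *Gm28661*, identical to *mt-Co2*, had 1.06. The ratios rest on sums over libraries and carry no test. A copy with few reads could pass the read limit only through the group where it was high. The share of all genes past 2-fold on such sums was not computed, so nothing is read from the count of 14.

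**Figure D4:**
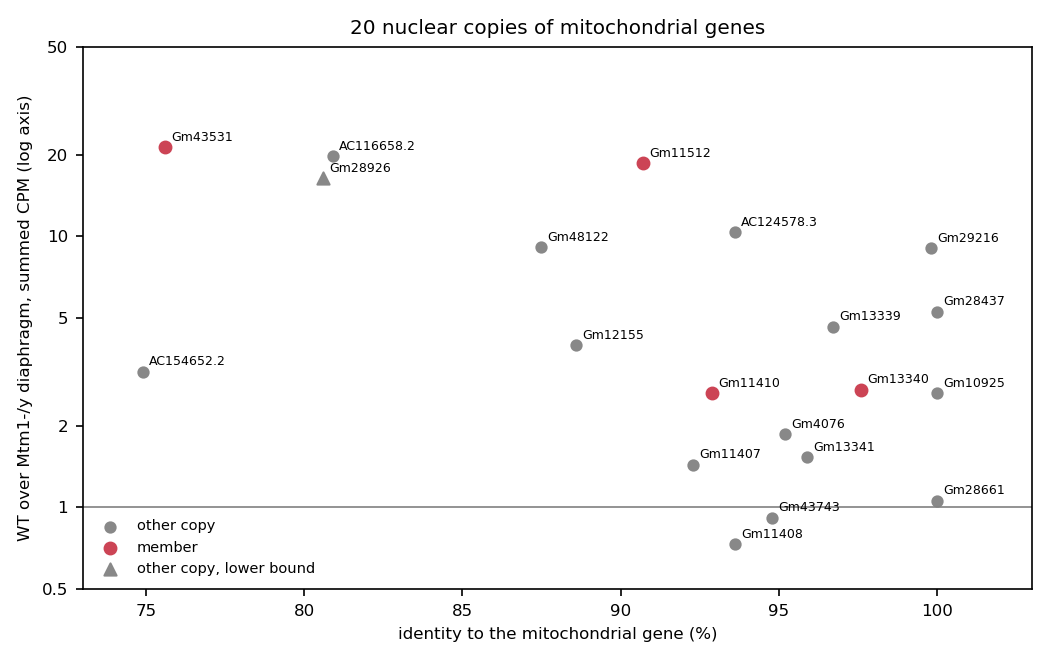
Ratio of WT to *Mtm1*-/y diaphragm CPM (vertical axis, logarithmic) against the identity of 20 nuclear copies to their mitochondrial gene in percent (horizontal axis). Red points are 4 of the 7 genes, grey points are other copies, and the triangle is a lower bound. The 7 copies under 92% identity, *Gm11512* and *Gm43531* among them, all lie above 2, and those at higher identity range from 0.732 to 10.4.

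Genes that lie within 100 kb were examined for changes alongside the 7. Of 32 such neighbours, the filter kept 20 for the gastrocnemius, 21 for the diaphragm, 17 for the heart and 15 for the liver, and edgeR called 2, both higher in *Mtm1*-/y gastrocnemius, where 4.84% of all genes were called higher. Both lie near *2310065F04Rik* on the opposite strand. *Myh3*, the embryonic myosin heavy chain of developing and regenerating fibres, lies 10170 bases away and was at 9.29 (SD 1.14) CPM in WT and 132.7 (SD 107.5) CPM in *Mtm1*-/y, n = 4 each (3.82 on the log2 scale, SE 0.486, adjusted p 0.00058). *Myh1*, the type IIX fast myosin, lies 79972 bases away and rose from 3660 to 7805 CPM (1.08, SE 0.162, adjusted p 0.0013). *Myh2*, the type IIA fast myosin, was at 0.93 on the log2 scale (SE 0.172, adjusted p 0.0034) and the antisense gene *Myhas* -0.86 (SE 0.131, adjusted p 0.0014), both under the fold threshold. *Myhas* runs antisense to the myosin genes, and although the kit marks strand, whether the counting used it is not given in the sources used here. In the diaphragm *Myh3* was at 1.55, 3.62, 3.55 and 1.93 CPM in WT and 6.03, 55.2 and 221 CPM in *Mtm1*-/y (5.17, SE 1.1, adjusted p 0.27), apart in every library but not past the edgeR threshold.

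**Figure D5:**
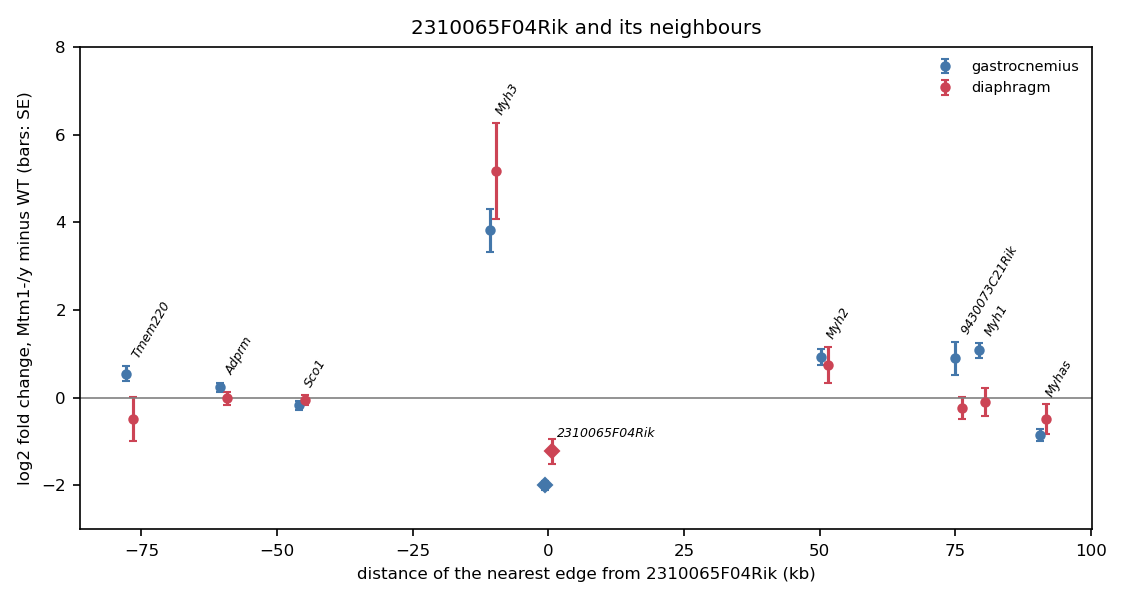
Log2 fold change of *Mtm1*-/y over WT (vertical axis, bars 1 SE) for *2310065F04Rik* and its tested neighbours, by the distance of the nearest edge in kb (horizontal axis, negative towards lower coordinates). Blue is gastrocnemius and red is diaphragm. *2310065F04Rik* lies at -2.01 and -1.22, *Myh3* at 3.82 and 5.17, and *Myh1* at 1.08 in the gastrocnemius and -0.10 in the diaphragm.

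Outside the myosin cluster edgeR called none of the neighbours. *Rab30*, which shares the bidirectional promoter with *4632427E13Rik*, had log2 fold changes of -0.01, 0.17, 0.09 and 0.28 in the gastrocnemius, diaphragm, heart and liver (edgeR adjusted p 0.94, 0.9, 0.9 and 0.97). *Stxbp4*, a syntaxin-binding protein whose intron holds *Gm11512* on the same strand, was at -0.61 (SE 0.183, adjusted p 0.033) in the gastrocnemius and -0.14 (adjusted p 0.92) in the diaphragm. *Gm13339* and *Gm13341*, copies of *mt-Nd2* and *mt-Co2* beside *Gm13340*, were at -2.25 (SE 0.503, adjusted p 0.28) and -0.61 (SE 0.146, adjusted p 0.28) in the diaphragm. DESeq2 called 2 neighbours in the diaphragm, *Myh3* (adjusted p 3e-04) and *Gm13339* (adjusted p 0.0032). *Mir133a-2*, a muscle microRNA gene 12494 bases from *B230312C02Rik*, differed by 1.50 on the log2 scale (SE 0.48, adjusted p 0.36) in the diaphragm on group means of 0.344 and 0.966 CPM.

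The 7 genes were set beside all other genes of their class. Among genes with a Gm or Rik symbol, 64 were called higher and 87 lower of 1873 tested in the gastrocnemius (8.06%, against 6.63% of all genes), and their median log2 fold change was -0.13 against 0.02 over all genes. Protein-coding genes had 674 higher and 183 lower of 13520 past both thresholds, and by the adjusted p alone they were even, with 2049 higher and 2056 lower. Annotated long noncoding RNAs had 54 higher and 64 lower of 1067 (11.1%), and pseudogenes 16 and 20 of 642 (5.61%), or 27 and 82 by the adjusted p alone. In the diaphragm, heart and liver edgeR called 0 genes with Gm or Rik symbols, and DESeq2 called 24, 3 and 1. An unadjusted edgeR p under 0.05 was reached by 256 of 2137, 102 of 1661 and 64 of 1526 such genes. Of 32 widely studied long noncoding RNAs, 31 were tested in the gastrocnemius and edgeR called 0 there and in the other organs. By the adjusted p alone, *Snhg18* (log2 fold change 0.94, SE 0.163), *Dnm3os* (0.79, SE 0.241), which hosts microRNAs of the miR-199 and miR-214 families, and *Dleu2* (0.52, SE 0.115) rose in the gastrocnemius, and *Snhg14* (-0.78, SE 0.11), *Tug1* (-0.47, SE 0.102) and *Snhg3* (-0.37, SE 0.108) fell. At an unadjusted p under 0.05 this list had 11 genes for the gastrocnemius, 9 for the diaphragm, 3 for the heart and 1 for the liver, where all genes had 6427 of 15456, 1806 of 16796, 1353 of 15238 and 606 of 14305.

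Some of that list stood out in the diaphragm, where edgeR and DESeq2 differed. *Meg3*, *Rian* and *Mirg*, maternally expressed RNAs of the same imprinted cluster, had log2 fold changes of 1.43 (SE 0.352), 1.77 (SE 0.437) and 1.97 (SE 0.423), and *Dnm3os* had 1.30 (SE 0.323). Their adjusted p was 0.28, 0.28, 0.27 and 0.28 in edgeR, and 0.0045, 0.0031, 0.00051 and 0.0095 in DESeq2. All 4 were higher in *Mtm1*-/y without overlap, as were 4.75% of all genes tested in the diaphragm, and they were singled out after their values were seen.

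The genes most like each of the 7 were found by the correlation of log2 CPM over the 30 libraries, after the mean of each tissue was removed, among 15566 genes that reached a mean of 1 CPM in a tissue. The libraries share their depth, genotype and place in the table, so the r values are a description. Genotype differences stay in these values and the 7 were chosen for them, so likeness among the 7 is partly built in. The 4 mitochondrial copies were like each other (r from 0.7 to 0.842). With these copies *B230312C02Rik* had r from 0.498 to 0.645, *2310065F04Rik* from 0.395 to 0.57 and *4632427E13Rik* from -0.155 to 0.155. *Gm13340* and *Gm11410* came first for one another (r = 0.842), *Gm43531* was most like *Gm11512* (0.825) and *Gm13340* (0.816), and *Gm11512* was most like the pseudogenes *Gm3809* (0.785) and *Gm5421* (0.768), ahead of *Gm13340* (0.759). *2310065F04Rik* was most like *Dab2ip* (0.868), which encodes a GTPase-activating protein, and *Pax7* (0.856), the transcription factor of muscle stem cells. *B230312C02Rik* was most like the noncoding genes *Gm30684* (0.821) and *Gm48719* (0.816), followed by the zinc transporter *Slc30a2* (0.812).

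*4632427E13Rik* was most like *Malat1* (0.832), an abundant RNA of nuclear speckles. In the liver *Malat1* was at 3160, 2800 and 1510 CPM in WT and at 2260, 80.6, 159 and 69.2 CPM in *Mtm1*-/y libraries (log2 fold change -1.95, SE 1.16, edgeR adjusted p 0.97). *Mtm1*-/y replicate 1 lay within the WT range and the other 3 libraries far below it. *Kcnq1ot1*, a nuclear imprinted RNA, was at 25.1, 16 and 9.8 CPM in WT liver and 22, 1.55, 3.36 and 1.84 CPM in *Mtm1*-/y liver, with the same replicate apart. *Neat1*, the RNA of paraspeckles, was at 896, 860 and 864 CPM in WT and 581, 404, 1250 and 459 CPM in *Mtm1*-/y and did not share that order.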

How the data were processed

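RNA from 4 organs of *Mtm1*-/y and WT mice was measured in 30 libraries, grouped by the labels. The deposited values are raw read counts per gene, which the authors made from TruSeq Stranded mRNA libraries demultiplexed with bcl2fastq 2.17.1.14, trimmed with cutadapt 1.10, aligned to mm10 with STAR 2.5.3a and counted from unique alignments with htseq-count 0.6.1p1. Unique counting removes reads shared with near-identical copies.

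From these counts, genes were filtered per tissue with filterByExpr (count minimum 10), scaled by TMM and compared by edgeR 4.0.16 in R 4.3.3 (quasi-likelihood test, Benjamini-Hochberg adjustment over all genes tested). WT organs were compared in 1 fit. Calls needed an adjusted p below 0.05 and a log2 fold change above 1 in size. DESeq2 1.42.0 was an alternative, as were other scaling, no filter, the adjusted p alone and leaving out each library. The scripts were tested on simulated data. Counting intervals are at 95% and cover counting error only, since reads carry no molecular identifiers. Transcripts were matched with BLAST 2.17.0. Sequences come from RefSeq promoters and GENCODE M21 transcripts, and all 36103 genes matched GENCODE M21.

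The 7 genes, the list of noncoding RNAs and the marker lists were chosen with earlier results of these data known. Beside the 7, the text names neighbours within 100 kb, the mitochondrial genes they copy, the 3 genes most like each, and genes of the noncoding list. *Snhg18* and the other list genes named by the adjusted p alone, *Meg3*, *Rian*, *Mirg*, *Kcnq1ot1*, *Neat1* and the further mitochondrial copies were named after their values were seen.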

Additional observations from a re-analysis of the deposited data

Results flagged for a closer look

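Among 31 groups of 4 libraries, in which the gap between an extreme library and its nearest neighbour was set against the range of the group, 3 libraries stood apart, and chance marks about 1 in 20 groups. *Gm11512* was at 0.575 CPM in *Mtm1*-/y liver replicate 1, against 0.0425 to 0.127 CPM in the other 3 *Mtm1*-/y livers. *Gm13340* was at 7.21 CPM in the same library, against 5.79 to 5.91 CPM. This library stands among the first 16 columns of the table, as do the WT livers, and the part of that position in these values was not tested apart from the fit given for the liver. *Gm11410* was at 2.89 CPM in WT gastrocnemius replicate 3, against 1.99 to 2.11 CPM in the other WT gastrocnemius libraries.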

How the results depend on the processing

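Low counts limit *Gm43531* everywhere and *Gm11512* in *Mtm1*-/y diaphragm, heart and liver, and edgeR estimated a larger spread between libraries in the diaphragm (biological coefficient of variation 0.394) than in the other organs (0.171 to 0.229). Of 1199 values recomputed for 73 results, 1162 were counted as keeping their direction, their side of the threshold or their size within the spread between libraries. Heart and WT organ values called in neither fit were counted as kept even with a changed sign. The heart ratio of mean CPM was counted as kept without a comparison. Over left-out libraries the heart log2 fold change ran from -0.49 to 0.58 for *B230312C02Rik* and from -0.23 to 0.09 for *Gm11410*. Scaling by library totals moved the median gastrocnemius log2 fold change of all genes by 0.31, and with the ratio of mean CPM by library totals, without TMM and at a pseudocount of 0.05, the gastrocnemius values were -0.29 for *Gm11512*, -1.67 for *2310065F04Rik*, 0.42 for *4632427E13Rik*, 0.39 for *Gm11410* and, with the opposite sign, 0.0745 for *Gm13340*. In the diaphragm that ratio gave -3.66 for *Gm11512* and -2.70 for *Gm43531*, for which DESeq2 gave -4.40.

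By the adjusted p alone, 8 neighbours and 356 genes with a Gm or Rik symbol passed in the gastrocnemius, where 14.1% of all genes were higher and 14.9% lower by that rule. DESeq2 called 2 neighbours in the diaphragm and 24, 3 and 1 Gm or Rik genes in the diaphragm, heart and liver. With the side of the table as a term, an alternative chosen after seeing the data, the liver values were -0.83 for *Gm11512*, -0.0789 for *Gm13340*, -0.65 for *4632427E13Rik* and 0.45 for *Gm11410*. This fit compares *Mtm1*-/y replicate 1 with the WT livers, so 1 library decides each value.

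Leaving out 1 library at a time gave 1 to 3 neighbours called in the gastrocnemius (1 without WT replicate 2 or 4) and 136 to 167 Gm or Rik genes there. It gave 0 to 1 such genes in the diaphragm (1 without *Mtm1*-/y replicate 2), 0 to 1 in the heart (1 without WT replicate 1 or 2) and 0 to 1 in the liver (1 without *Mtm1*-/y replicate 1). The log2 fold change ran from -4.46 to -3.88 for *Gm43531* in the diaphragm and from -3.74 to -2.09 for *Gm11512* in the liver, the first of these without *Mtm1*-/y replicate 1. The WT combinations that differed numbered 22 to 25. *B230312C02Rik* between gastrocnemius and diaphragm was no longer called without WT gastrocnemius replicate 2 (adjusted p 0.054), *Gm13340* between diaphragm and liver without WT liver replicate 2, and *Gm43531* between gastrocnemius and diaphragm under DESeq2 (adjusted p 0.096).

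Libraries that share a replicate number did not deviate together in every pair of groups (correlation across genes from -0.68 to 0.494), so the numbers were not taken as pairs. With the replicate number as a block, 24 WT combinations, 0 heart genes of the 7, and 2, 0, 0 and 0 neighbours in the gastrocnemius, diaphragm, heart and liver were called, and 136 Gm or Rik genes in the gastrocnemius in place of 151. Each of these counts stayed within 1.5 times its value without the block, and no call of a WT difference of the 7 genes changed.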
